A study of Arabidopsis thaliana with 3 samples.

Results

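Wells of a plate-based single-cell RNA sequencing experiment that held reads of type-A response regulators, genes switched on by the plant hormone cytokinin, are described here. The members were chosen by their reads: a well was kept when at least 500 genes had a read, and a kept well was a member when the reads of ARR3, ARR4, ARR5, ARR6, ARR7, ARR8, ARR9, ARR15 and ARR16 added up to 5 or more. This held for 137 of 322 kept wells, or 42.5% (exact 95% binomial interval 37.1 to 48.1), out of 573 wells in the table. The comparison wells were the 151 kept wells with 0 reads in all 9 genes, and the 34 kept wells with 1 to 4 such reads lay between. Because reads of these 9 genes chose the wells, their own levels are given as a description only.

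All wells came from roots of Columbia-0 (Col-0) Arabidopsis thaliana, 5 days after germination, and all carried pHB53:NLS-3xmCherry, a nuclear triple mCherry reporter driven by the HB53 promoter. Roots were made into protoplasts (cells freed of their walls), and cells with mCherry signal were sorted, so what is called a primordium cell is a cell in which that promoter was active; the submitters place them in lateral root primordia of stages I to IV. There was no treatment and no other genotype, and no group received cytokinin. The labels name 3 replicates of this 1 group, but the sources used here tie no well to a replicate, so all wells stand as 1 sample, with no test and no replicate error. The wells were sequenced on 3 flow cells with 2 plates each, and whether these coincide with the replicates is not known; values within each are given because no replicate values can be; all intervals cover counting error only.

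Cytokinin is bound by the histidine kinase receptors AHK2, AHK3 and AHK4. A phosphate then passes through histidine phosphotransfer proteins (AHPs) to type-B response regulators, which are transcription factors that switch on target genes. Type-A response regulators are among the first targets, and they hold the pathway back in turn, which is why their transcripts are widely used as a readout of cytokinin signalling. In the root, cytokinin signalling is known for promoting vascular cell divisions and differentiation and for holding back the initiation of lateral roots, while auxin promotes it.

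The 9 rule genes are close relatives, and 2 pairs shared long exact stretches of sequence. Among 45 pairs of type-A regulator transcripts of the RefSeq annotation (TAIR10.1), the longest exact shared runs were 41 bases long, in ARR3 and ARR4 and in ARR8 and ARR9, and the next longest was 23 bases. They are shown because they are where these genes look most alike to a short aligned piece; the reads were 150 bp long, so a whole read reached beyond the run. The runs are written 5′ to 3′ in the sense of the transcript, with no capitals.
ARR4 (chr1:3443277-3443317) and ARR3 (chr1:22066442-22066482), both on the minus strand: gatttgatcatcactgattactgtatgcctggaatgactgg
ARR8 (chr2:17222728-17222768) and ARR9 (chr3:21110498-21110538), both on the plus strand: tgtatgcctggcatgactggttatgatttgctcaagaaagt
ARR6, ARR8 and ARR9 each overlapped 1 other annotated gene (AT5G62910, AT2G09250 and AT3G08825), and whether counting used strand is unknown here, so reads from such overlaps cannot be assigned with certainty.

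ARR4 and ARR5 were the genes found in most member wells, and the promoters of these and of ARR6 and ARR7 are printed to show how differently related regulators are built at the same place. Each sequence holds the 250 bases before the gene's annotated start (RefSeq, TAIR10.1), 5′ to 3′ in the direction of the gene. Capitals mark AGATT on either strand (AGATT, or AATCT on the other strand), a core sequence bound by type-B regulators.
ARR4 promoter, chr1:3444361-3444610, minus strand: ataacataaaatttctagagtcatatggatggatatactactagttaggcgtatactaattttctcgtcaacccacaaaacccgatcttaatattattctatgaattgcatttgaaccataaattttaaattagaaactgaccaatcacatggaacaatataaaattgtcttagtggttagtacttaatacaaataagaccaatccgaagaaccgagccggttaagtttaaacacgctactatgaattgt
ARR5 promoter, chr3:17760951-17761200, minus strand: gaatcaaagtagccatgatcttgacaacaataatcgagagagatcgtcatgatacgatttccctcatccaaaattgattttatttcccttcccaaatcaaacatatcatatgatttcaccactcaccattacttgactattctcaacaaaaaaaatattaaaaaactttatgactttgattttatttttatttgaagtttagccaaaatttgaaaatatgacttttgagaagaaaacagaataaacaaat
ARR6 promoter, chr5:25254319-25254568, minus strand: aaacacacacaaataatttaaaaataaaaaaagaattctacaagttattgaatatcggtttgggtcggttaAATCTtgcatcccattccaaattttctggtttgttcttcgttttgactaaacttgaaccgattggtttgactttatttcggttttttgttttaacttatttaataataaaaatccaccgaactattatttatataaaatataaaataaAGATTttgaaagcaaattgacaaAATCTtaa
ARR7 promoter, chr1:6579315-6579564, minus strand: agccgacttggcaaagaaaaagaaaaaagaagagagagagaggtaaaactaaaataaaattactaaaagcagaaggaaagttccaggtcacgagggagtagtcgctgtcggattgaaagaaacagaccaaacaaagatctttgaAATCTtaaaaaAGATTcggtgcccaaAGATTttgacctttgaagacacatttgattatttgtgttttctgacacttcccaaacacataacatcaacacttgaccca
AGATT had 3 matches each in ARR6 and ARR7, 2 each in ARR9 and ARR16, 1 each in ARR3, ARR8 and ARR15, and 0 in ARR4 and ARR5. Of 27443 promoters of this length, 63.7% held it. The longer AGATACG, which shares only the letters AGAT with it, was searched on both strands too and was in 0 of the 9 promoters and in 1.69% of all promoters. A match is a run of letters and not a shown binding site. The order of the genes by number of wells did not follow these matches, since the 2 genes found in most wells had 0.

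ARR4 was detected in 71 of 137 member wells, 51.8% (43.1 to 60.4), and its share was alike on the flow cells at 53.8%, 52.2% and 50.0%. ARR5 was detected in 50 wells, 36.5% (28.4 to 45.1), with 20.5% (9.30 to 36.5) on flow cell 1, 34.8% (21.4 to 50.2) on flow cell 2 and 50.0% (35.8 to 64.2) on flow cell 3. The exact intervals of ARR5 on flow cells 1 and 3 overlapped only narrowly, and in wells thinned to 100000 reads its shares were 21.1%, 36.4% and 47.5%, so the order stayed although flow cell 3 was the shallowest. ARR8 was found in 26 member wells (19.0%) and ARR9 in 23 (16.8%). ARR3 and ARR6 were each found in 13 wells and ARR7 in 12, while ARR15 and ARR16 were found in 2 wells each. Neighbours in this order from ARR8 to ARR9 and from ARR3 and ARR6 to ARR7 lay within each other's intervals.

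Where a gene was detected, its reads per well varied widely. In the 71 wells with ARR4 the lowest count was 1 read, the median 16 and the highest 188. In the 50 wells with ARR5 the corresponding counts were 1, 22 and 329. ARR5 gave 31.6% and ARR4 26.7% of all regulator reads in the member wells, so 2 genes carried more than all the others together. ARR9 gave 14.6% of these reads and ARR8 10.2%. For ARR3, 1 well held 67.5% of all its reads, 418 of 619, so a summed level of ARR3 is a statement about that well.

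**Figure D1:**
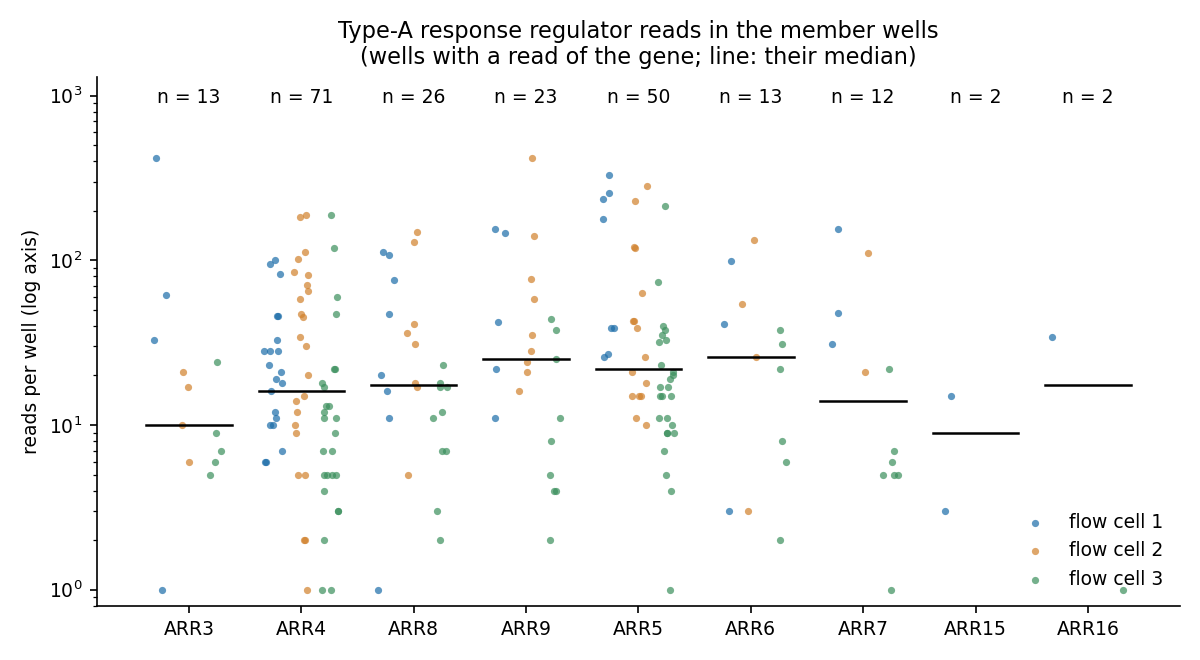
Reads per well (log axis) of each of the 9 rule genes in the member wells in which the gene had a read, coloured by flow cell, with n the number of such wells and the line their median. ARR4 (71 wells) and ARR5 (50 wells) have the most wells, and each gene detected in 12 or more wells ranges from few to over 100 reads.

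Most member wells rested on a single gene. Of 137 members, 83 (60.6%) had reads of 1 rule gene, 37 of 2, 13 of 3 and 4 of 4. ARR4 was the sole gene in 31 wells and ARR5 in 22. Among the 54 wells with 2 or more genes, 31.5% had 1 gene giving over 80% of the regulator reads. Wells with more of the genes were also wells with more genes of any kind: the median number of genes with a read was 4014 in members with 1 rule gene, 5425 with 2 and 5562 with 3 or more, at median depths of 312207, 261129 and 262076 reads. The part of gene number in the joint detection was not tested.

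ARR4 and ARR5 met in 20 wells, which were 28.2% of the ARR4 wells and 40.0% of the ARR5 wells. ARR3 stood with ARR4 in 9 wells, 69.2% of the ARR3 wells but 12.7% of the ARR4 wells; this is the pair that shares the run on chromosome 1. ARR8 and ARR9, the other pair with a run of 41 bases, met in 5 wells, 19.2% and 21.7% of their wells. ARR4 and ARR8 met in 11 wells, and ARR4 and ARR6 in 7. By gene set, 71 members had reads of ARR3, ARR4, ARR8 or ARR9 and of none of the other 5, 34 had reads of ARR5, ARR6, ARR7, ARR15 or ARR16 and of none of the first 4, and 32 had both.

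The regulator reads of a member well ranged from 5 to 707 with a median of 34, or 149 CPM (reads of a gene scaled by the total reads of the well; range 7.35 to 1052), and the median was 150, 149 and 146 CPM on the 3 flow cells. Just inside the limit, 16 members had 5 to 9 regulator reads, with a median of 41.3 CPM; just outside it, the 34 wells with 1 to 4 reads had a median of 10.3 CPM. The share of member wells was 32.3% of kept wells on the plate with the lowest share and 48.0% on the plate with the highest. When wells were thinned to 100000 reads, 100 of 122 members still had 5 or more regulator reads and 0 had lost all of them. In the 251 wells left out for having under 500 genes (median 52 genes and 3922 reads), 4 had any regulator read.

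Member wells were somewhat deeper and held more genes. Members had a median of 262076 reads (37164 to 1409141) and comparison wells 246128 (8315 to 1459543). Members had a median of 4633 genes with a read (1334 to 9516), 910 more than the 3723 (506 to 8047) of the comparison wells. Within flow cells, median reads were 472063 against 394319, 449304 against 371764 and 158548 against 123966. At an equal depth of 100000 reads, which left out 15 members and 32 comparison wells as too shallow, the medians of 122 members and 119 comparison wells were 4221 and 3575 genes. The order held on each flow cell, with 4164 against 3429, 3972 against 3626 and 4465 against 3832. A well can hold more genes because of its RNA content, its capture or a second cell, and these cannot be told apart here. No 2 wells had identical columns.

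**Figure D2:**
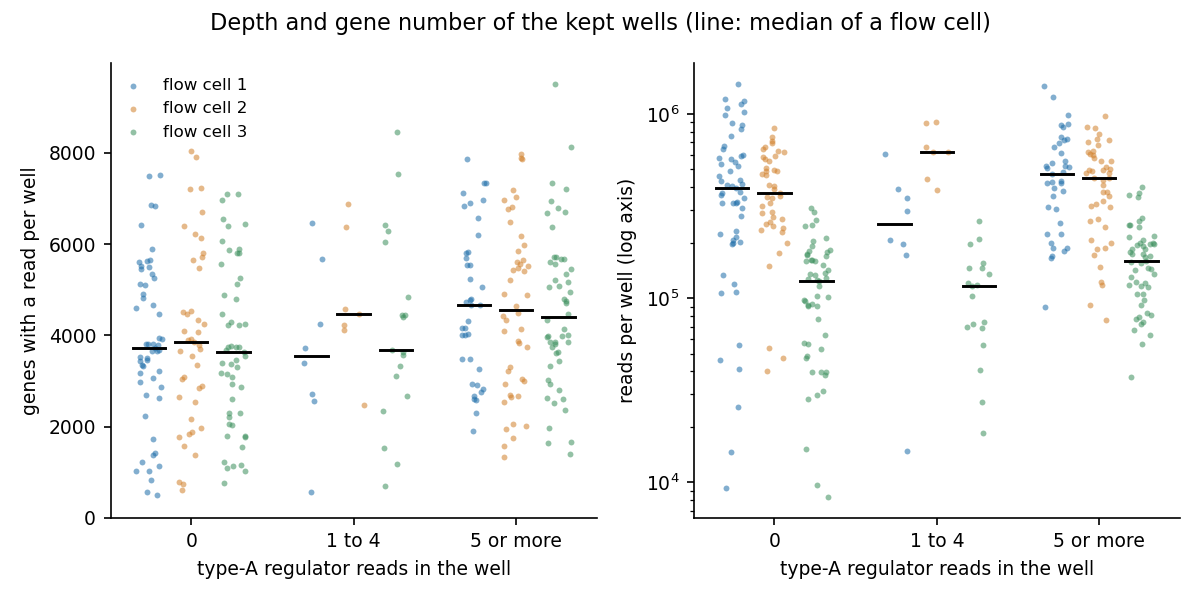
Genes with a read per well (left) and reads per well (right, log axis) for the 322 kept wells by their number of type-A regulator reads, coloured by flow cell, with the line the median of a flow cell. Member wells have the higher median gene number on each flow cell, and flow cell 3 is the shallowest in all 3 classes.

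Because of that difference, genes were compared at 100000 reads per well and within 9 strata, the 3 flow cells each cut into 3 classes of gene number, weighted by the members. The value is the share of wells with a read, and the weighted share of the comparison wells is given beside it. A gene is called higher or lower by share when the difference is 15 percentage points or more with the same sign on all 3 flow cells, and by fold when the ratio of mean reads is 2-fold or more, with the same sign on all 3 and with no well holding over 50% of the reads of the higher group. Of 14974 measured genes (a read in 10 or more of the compared wells), 130 (0.868%) were higher and 54 (0.361%) lower by share, and 743 (4.96%) were higher and 638 (4.26%) lower by fold. These are rules of size, with no test behind them, and the median difference over all measured genes was 0.51 points.

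The other genes of the cytokinin pathway did not stand apart from that background. Of 73 pathway genes outside the rule, 66 had a read in the compared wells and 42 were measured. By share 0 were higher, against a background of 0.868%, and 0 were lower, against 0.361%. By fold 2 were higher, which is 4.76% against a background of 4.96%, and 2 were lower, 4.76% against 4.26%. Their median difference was 1.42 points, 26 (61.9%) lay above 0, against 54.0% of all measured genes, and 8 (19.0%) lay above 0 on all 3 flow cells, against 15.5%, and 3 (7.14%) below, against 11.3%. Single lists differed. Of the 8 measured response factors and other responsive genes, 2 (25%) were higher by fold, against 4.96%, and 6 lay above 0. The synthesis and transport lists each had 1 gene lower by fold, of 3 and 5 measured. At a background of 0.868%, a count of 0 among 42 genes cannot show that these genes were alike in both groups. The name given to these wells, cells responding to cytokinin, comes from the 9 rule genes that chose them, and the wells are called member wells here.

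**Figure D3:**
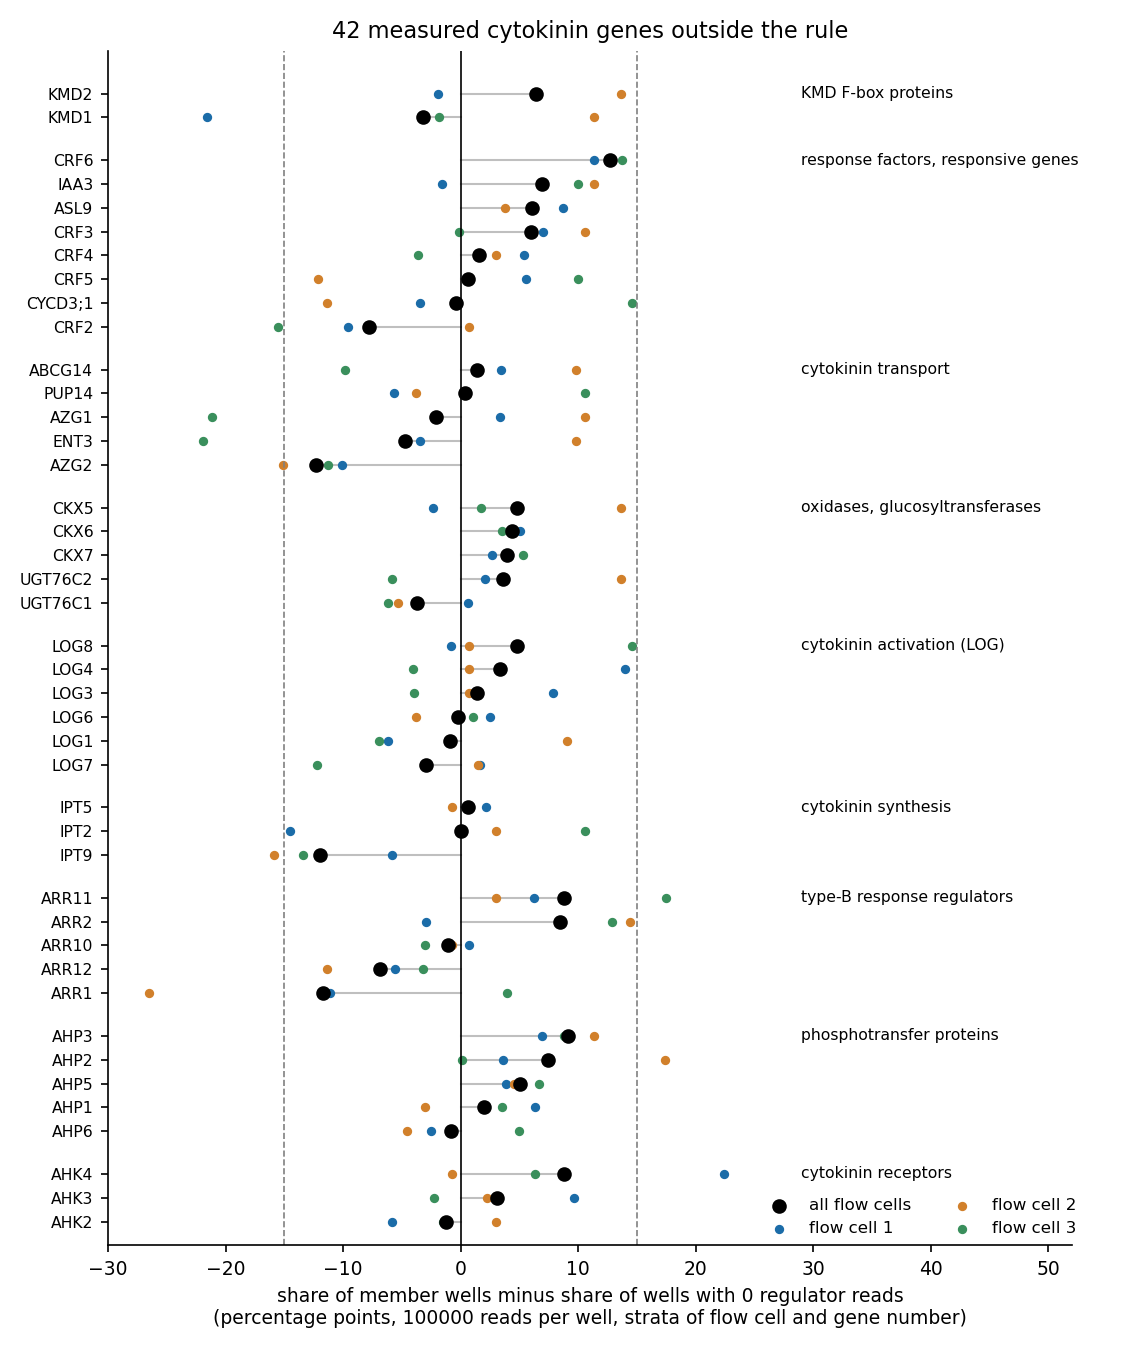
Difference between the share of member wells and the weighted share of wells with 0 regulator reads, in percentage points, for the 42 measured cytokinin genes by role. Black points are all flow cells and coloured points the single ones; dashed lines mark 15 points, which no black point passes.

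Cytokinin is made by isopentenyltransferases (IPTs) and set free by LOG enzymes. IPT9, which makes cytokinin from transfer RNA, was the most different of the 3 measured synthesis genes: it had a read in 13 of 122 members, 10.7%, against a weighted 22.6% (22 of 119), and the difference was −5.85, −15.9 and −13.4 points on the 3 flow cells. Its mean reads gave a log2 ratio of −2.08, which passed the fold rule. IPT2, the other tRNA type, differed by 0.06 points and IPT5 by 0.61. Among the 6 measured LOG genes, LOG7 was the most widely detected and was found in 63 members and 63 comparison wells. The differences of these 6 lay between −2.94 (LOG7) and 4.80 points (LOG8), and 0 of them kept 1 sign on all 3 flow cells. The hydroxylases CYP735A1 and CYP735A2, which make trans-zeatin, had a read in 2 and 10 of the 322 kept wells.

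Among transporters, AZG2, a purine permease that also carries cytokinin, had a read in 4 members and 15 comparison wells, a weighted difference of −12.3 points, with −10.1, −15.1 and −11.3 on the flow cells, and passed the fold rule with a log2 ratio of −1.94. In all kept wells without thinning, it had a read in 5 of 137 members and 21 of 151 comparison wells. PUP14, which takes cytokinin into the cell, was the most widely found transporter, in 83 members (68.0%) against a weighted 67.7%. The related AZG1 and the nucleoside carrier ENT3 changed sign between flow cells. ABCG14, the exporter of root-made cytokinin, had a read in 16 members and 11 comparison wells.

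The receptors were present in both groups. AHK3 had a read in 67 of 122 members (54.9%) and in a weighted 51.8% of comparison wells. AHK4, the main receptor of the root vasculature, had a read in 32 members (26.2%) against a weighted 17.5%, but the difference of 8.77 points came mostly from flow cell 1, with 22.4, −0.76 and 6.30 points on the 3. AHK2 was found in 10 members and 11 comparison wells. None of the 3 receptors kept 1 sign on all flow cells.

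Of 5 measured phosphotransfer proteins 4 lay above 0, by small amounts. AHP3 had a read in 27 members (22.1%) against a weighted 13.0%, with 6.93, 11.4 and 8.84 points on the flow cells. AHP2 differed by 7.44 points (3.58, 17.4 and 0.13) and AHP5 by 5.04 (3.90, 4.55 and 6.65). These were 3 of 5 measured AHPs with a positive sign throughout, against 15.5% of all measured genes, and all 3 stayed under 15 points. By mean reads AHP2 and AHP5 leaned the other way, with log2 ratios of −0.22 and −0.23. AHP3 had 1.10 and did not pass the fold rule. On flow cell 3 the unweighted share of AHP2 was 32.5% in members and 33.3% in comparison wells, so its sign there depended on the weighting. AHP6, which lacks the phosphate-accepting residue and inhibits the pathway, had a read in 7 members and 7 comparison wells.

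The type-B regulators, the activators of the 9 rule genes, went both ways. ARR1 was the most widely detected and was found less in members, 40.2% (49 of 122) against a weighted 51.9% (57 of 119), with −11.1, −26.5 and 3.97 points. ARR12 was lower by a smaller amount, 30.3% against a weighted 37.2%, and on each flow cell in the weighted shares. Unweighted, it was found in 37 of 122 members and 37 of 119 comparison wells, 30.3% against 31.1%. On flow cell 3 its unweighted share was slightly higher in members, so the common sign depended on the weighting by gene number. ARR2 was found in 34.4% of members against 25.9%, with −2.98, 14.4 and 12.9 points. ARR11 had a read in 15 members and 4 comparison wells, 12.3% against 3.52%, with a positive sign on each flow cell at 6.25, 3.03 and 17.5 points. ARR10 had a read in 19 members and 16 comparison wells.

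Of genes that respond to cytokinin, CRF6 came closest to the share rule. CRF6, a cytokinin response factor of the AP2/ERF family, had a read in 48 members, 39.3% (30.6 to 48.6), against a weighted 26.7% of comparison wells, where 28 of 119 had a read (23.5%, 16.2 to 32.2). Its difference of 12.7 points was 11.4, 12.9 and 13.7 on the flow cells, the most even of the pathway's larger values. Weighted by neither flow cell nor gene number it was 15.8 points, and weighted by flow cell alone 15.2, both past the rule. In all kept wells without thinning, CRF6 had a read in 53 of 137 members and 36 of 151 comparison wells. CRF2 leaned the other way, with 10 members and 16 comparison wells, and 1 comparison well held 78.9% of that group's CRF2 reads.

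IAA3 and ASL9 were the pathway genes higher by fold. IAA3 (SHY2), an auxin response repressor that type-B regulators switch on in roots, had a read in 10 members and 2 comparison wells, with a log2 ratio of 3.91 of mean reads. Its share difference was 6.89 points and was negative on flow cell 1 (−1.57). ASL9, a LOB-domain gene induced by cytokinin, had a read in 14 members and 6 comparison wells, with a log2 ratio of 1.89 and 8.69, 3.79 and 6.03 points on the flow cells. CYCD3;1, a D-type cyclin that cytokinin induces, was found in 22 wells of each group. GRXS13 had a read in 3 members and in 0 comparison wells.

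Enzymes that remove cytokinin were detected in few wells. The oxidases CKX6 and CKX7 were higher on each flow cell, CKX6 in 11 members against 5 comparison wells and CKX7 in 9 against 3, with differences of 4.38 and 3.93 points. CKX5 was found in 12 members and 6 comparison wells but was negative on flow cell 1. Of the F-box proteins that mark type-B regulators for breakdown, KMD2 was found in 77 members (63.1%) against a weighted 56.7% and KMD1 in 47.5% against 50.8%, and both changed sign between flow cells. The type-C regulators ARR22 and ARR24 each had a read in 2 of the 322 kept wells. ARR17 (AT3G56380), the type-A gene outside the rule, had a read in 0 of 322 kept wells, which, taking 3 counts as the limit, allows a read in up to 0.932% of wells and does not show that the gene is silent.

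Shares were also read separately by the rule genes that made a well a member. In the 31 thinned members with reads of ARR5, ARR6, ARR7, ARR15 or ARR16 only, ARR2 was found in 41.9% and ASL9 in 19.4% of wells. The weighted shares of the comparison wells were 21.8% and 3.53%. In the 63 with ARR3, ARR4, ARR8 or ARR9 only, ARR2 and ASL9 were found in 34.9% and 9.52%, against 24.9% and 4.76%. The type-B regulators did not move together in the first 31 wells. There ARR1 (32.3% against 49.4%), ARR10 (6.45% against 16.0%) and ARR12 (19.4% against 31.8%) lay lower, and ARR11 (12.9% against 2.63%) lay higher. IPT9 had a read in 1 well of the first (3.23%, against 20.55%) and 7 of the second (11.1%, against 22.2%). AHP2 was found in 25.8% of the first (comparison wells 30.3%) and 42.9% of the second (32.2%). KMD2 was found in 41.9% (57.6%) and 68.3% (58.7%). CKX6 had a read in 5 wells of the first (16.1%, against 3.85%) and 2 of the second (3.17%, against 4.55%). AZG2 had a read in 2 wells of the first (6.45%, against 15.3%) and 1 of the second (1.59%, against 14.85%). These subsets were formed after the values were seen, their difference was not tested, and 31 wells give wide counting intervals.

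Outside the lists, the 12 genes with the highest differences ran from 21.7 to 28.3 points. The widest difference belonged to AT1G61260, a DUF761 protein, with a read in 57 members, 46.7% (37.6 to 56.0), and in a weighted 18.5% of comparison wells (24 of 119). It was higher on each flow cell, by 15.4, 35.6 and 32.4 points, and without thinning it was found in 45.3% of members and 18.5% of comparison wells. In the 31 compared members with reads of ARR5, ARR6, ARR7, ARR15 or ARR16 only, its difference turned to −4.37 points. It was 30.4 points in the 63 compared members with ARR3, ARR4, ARR8 or ARR9 only. A protein phosphatase 2C gene (AT3G16800) was found in 69.7% of members against 42.8%, and a RING/U-box gene (AT3G43430) in 70.5% against 44.1%. RVE2 (AT5G37260), a MYB-like factor related to the circadian clock genes, was found in 63.1% against 37.8%, with a log2 ratio of 1.29.

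Others varied more between flow cells. PBP1 (AT5G54490), a calcium-binding partner of the auxin transport kinase PINOID, was found in 64.8% of members against a weighted 42.2%, with 25.3, 27.3 and 14.6 points. TET5 (AT4G23410), a tetraspanin, was found in 33.6% against 11.0%, but its difference ran from 5.41 points on flow cell 1 to 38.9 on flow cell 3. The others among the 12 highest were AT1G13360, AT2G39270, AT5G47430, AT3G19910, AT1G14480 and AT5G03610, with differences from 21.7 (AT5G03610) to 24.8 points (AT1G13360). Of the 130 genes higher by share, 36 were also higher by fold.

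The 12 genes with the lowest differences ran from −21.8 to −17.8 points. Without weighting by flow cell and gene number, 10 of them lost the call, and 2 genes in all were lower by share in place of 54. AT1G28190 and AT2G41650 kept the call, at −15.2 and −15.3 points. Weighted by flow cell alone, 3 genes in all were lower by share, and BPC1 also kept the call, at −15.8. FIB2 (AT4G25630), a fibrillarin of ribosomal RNA processing, was found in 10.7% of members (13 of 122) against a weighted 29.4% (28 of 119), with −2.84, −34.1 and −17.1 points; unweighted it differed by −12.9. TIF3H1 (AT1G10840), a subunit of translation initiation factor 3, was found in 44.3% against 62.1%, and AT2G09990, a ribosomal S5 domain protein, in 41.0% against 59.0%; unweighted they differed by −10.4 and −9.44 points. GAMMA CA2 (AT1G47260), a subunit of mitochondrial complex I, was found in 42.6% against 64.3%, and MORF1 (AT4G20020), an organellar RNA editing factor, in 15.6% against 33.6%; unweighted they differed by −12.8 and −12.2 points. BPC1 (AT2G01930), a GAGA-binding factor, was found in 23.8% against 43.2%, and GRP7 (AT2G21660), an RNA-binding protein under clock control, in 55.7% against 74.6%; unweighted they differed by −14.0 and −13.2 points. The lowest difference was that of AT1G28190, and PHS1, PECT1, AT2G41650 and AT1G09280 made up the rest. Of the 54 genes lower by share, 13 were also lower by fold.

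**Figure D4:**
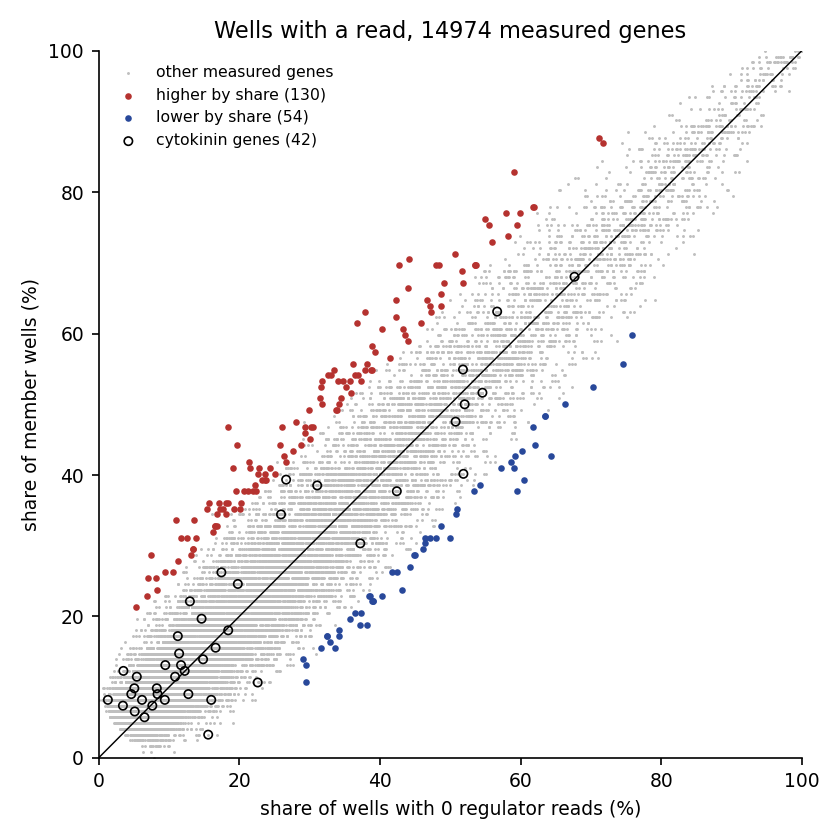
Share of member wells with a read against the weighted share of wells with 0 regulator reads, in percent, for 14974 measured genes at 100000 reads per well. Red points are the 130 genes higher and blue points the 54 lower by share, the line marks equal shares, and the 42 cytokinin genes (open circles) lie among the uncoloured genes.

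Pericycle markers, which cover the layer where lateral roots begin, had 0 genes past the share rule and 2 of 5 (40%) higher by fold. The backgrounds were 0.868% higher by share and 4.96% by fold. All 5 were measured and lay above 0, where 54.0% of all measured genes did, and 3 of them did so on all flow cells, where 15.5% of all genes did, with a median of 9.78 points. PHO1, a phosphate exporter, had a read in 56 members (45.9%) against a weighted 31.5%, with 15.5, 17.4 and 10.0 points. The zinc exporters HMA4 and HMA2 differed by 11.1 and 9.78 points, and HMA4, in 26 members and 11 comparison wells, was also higher by fold. The nitrate transporter NPF7.3 was higher by fold but negative on flow cell 1 (−8.86), and SKOR, a potassium channel, differed by 1.64. Without weighting by flow cell and gene number, at least 1 of the 5 had a read in 62.3% (53.1 to 70.9) of members and 45.4% (36.2 to 54.8) of comparison wells. Members also have more genes of any kind. The summed level was 0 to 7620 CPM in the members and 0 to 3340 in the comparison wells. The part of these markers in the other differences was not tested.

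Of the phloem genes 6 were measured, 0 passed the share rule and 1 was higher by fold. Of all measured genes 0.868% were higher by share and 4.96% by fold. All 6 were above 0, where 54.0% of all measured genes were, and 3 on all flow cells, where 15.5% were. Their median was 4.16 points. BRX, a regulator of early phloem, had a read in 14 members and 3 comparison wells, with a log2 ratio of 4.47 and 4.37, 11.4 and 13.2 points. NAC020 was found in 24 members against 12 comparison wells, with 0.66, 13.6 and 15.3 points. Unweighted, a read of at least 1 of the 10 listed genes was in 63.9% (54.7 to 72.4) of members and 54.6% (45.2 to 63.8) of comparison wells, at 0 to 4710 and 0 to 4870 CPM, and SEOR1, NAC086 and NAC045 were at 0 in the comparison wells. Vascular precursor genes were split, with 3 of 6 above 0, among them HB8 (8.61 points) and PHB (8.46), positive on each flow cell.

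Of 5 quiescent centre and stem cell niche genes 2 were measured and 0 passed the share rule, where 0.361% of all measured genes were lower. Their median was 1.77 points on flow cell 1 and −14.8 and −12.3 on the others. WOX5, which keeps the root's stem cells, had a read in 12 members and 19 comparison wells, with 3.81, −22.0 and −9.06 points. BBM, an AP2 factor of the stem cell niche, had a read in 10 and 15, with a log2 ratio of −1.28 that passed the fold rule. By fold 4.26% of all measured genes were lower. Unweighted, at least 1 of the 5 niche genes was found in 15.6% (9.64 to 23.2) of members and 25.2% (17.7 to 34.0) of comparison wells, with summed levels of up to 520 and 1890 CPM, and PLT2 was at 0 in the members. Xylem, cortex, epidermis and root cap lists had 0 measured genes. A read of any root cap gene was in 1 member, of any xylem gene in 8 members and 3 comparison wells, of any cortex gene in 2 and 7, and of any epidermis gene in 8 and 2.

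**Figure D5:**
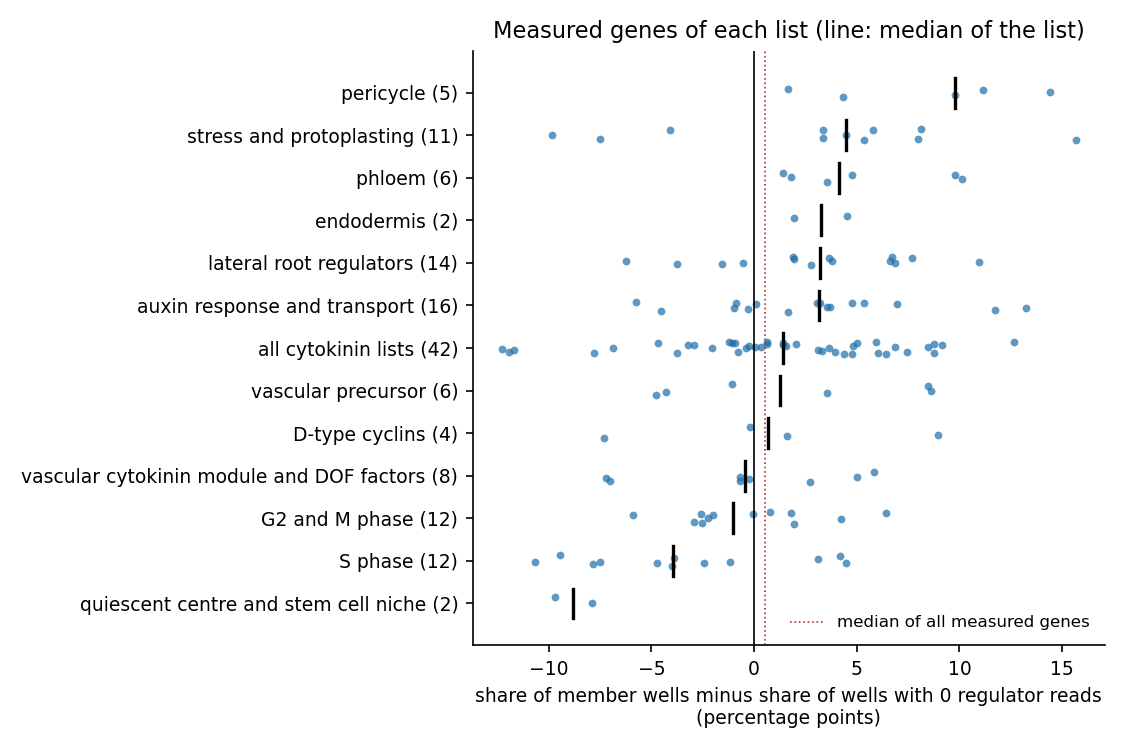
Difference in the share of wells with a read, in percentage points, for the measured genes of each list with 2 or more such genes (number in brackets), with the line the median of a list. The pericycle list has the highest median (9.78 points) and the 2 quiescent centre genes the lowest, while the cytokinin lists centre near the median of all measured genes.

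Auxin and lateral root genes were mostly found at like shares. GH3.6, which joins auxin to amino acids and is induced by it, had a read in 36 members (29.5%) against a weighted 16.3%, with 8.62, 9.85 and 21.3 points. LBD16, a LOB-domain factor of lateral root initiation, was found in 40.2% against 29.2%, with 3.88, 9.09 and 19.8 points. In the 31 compared members with ARR5, ARR6, ARR7, ARR15 or ARR16 only, LBD16 was found in 19.4% against a weighted 26.7%. In the 63 with ARR3, ARR4, ARR8 or ARR9 only, it was found in 41.3% against 29.2%. These subsets were formed after the values were seen, and their difference was not tested. The repressor IAA19 was found in 71.3% against 59.6% but was negative on flow cell 3 (−3.39). IAA2 was found in 117 members and 114 comparison wells, and IAA28, the founder cell repressor, differed by −3.74 points. HB53, whose promoter drove the sort, had a read in 10 members and 15 comparison wells, with −4.28, −8.33 and −5.85 points. Of the 14 measured lateral root genes 10 lay above 0, and of the 16 auxin genes 11, where 54.0% of all measured genes did. In each list 0 passed the share rule, against a background of 0.868% higher and 0.361% lower.

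Genes of the module that raises cytokinin in the young vasculature, with DOF factors, went both ways. Of 8 measured genes 3 lay above 0, where 54.0% of all measured genes did. TMO5, a bHLH factor that works with LHW to switch on cytokinin production, was found in 32.8% of members against a weighted 39.8%, with −0.63, −7.58 and −12.5 points. TMO6, a DOF factor, was found in 54.9% against 62.1%, negative on each flow cell. LHW was found in 21.3% against 15.5% and changed sign. BGLU44, a beta-glucosidase induced by that pair, had a read in 13 members and 7 comparison wells and was higher by fold with a log2 ratio of 1.07. DOF2.1, a target of the pair, had a read in 9 and 8 wells and was lower by fold at −1.49.

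Division genes gave no common direction beyond a lean of the S phase list in the weighted shares. Of 12 S phase genes 9 lay below 0, where 46.0% of all measured genes did, with a median of −3.97 points. Among them were RNR1, a ribonucleotide reductase subunit, at −10.7 points (−11.2, −0.76 and −21.1), and MCM5, of the replicative helicase, at −9.45. Unweighted, a read of at least 1 of the 12 was in 67.2% (58.1 to 75.4) of members and 63.9% (54.6 to 72.5) of comparison wells. MCM2 was lower by fold (log2 −1.28) and CDC6, which loads the helicase, higher (1.14). Of the 12 measured G2 and M phase genes 5 lay above 0, where 54.0% of all measured genes did. CYCD3;2, a D-type cyclin, was found in 58 members (47.5%) against a weighted 38.6%, negative on flow cell 2.

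Of 11 stress and protoplasting genes, 1 was higher by share, against a background of 0.868%, and 3 by fold, 27.3% against 4.96%. BAP1, a membrane-binding protein that limits cell death, was the gene of all lists past the share rule, with a read in 39 members, 32.0% (23.8 to 41.0), against a weighted 16.3% (19 of 119), and 9.17, 29.6 and 6.61 points; 1 member held 44.6% of its reads in that group. BAP1 lost the call without flow cell 2, at 7.85 points. In the 31 compared members with reads of ARR5, ARR6, ARR7, ARR15 or ARR16 only, it lost the call too, at 2.22. It lay just under the limit with 10 or more rule reads (13.8) and at 50000 reads (13.4). The same held with the rule applied after thinning (12.9) and against all other kept wells (14.95). The heat shock genes HSP101 and HSP70B were higher by fold, both at a log2 ratio of 1.06. WRKY33, a WRKY factor of the defence response, and ZAT10, a zinc finger repressor induced by stress, lay below 0 on each flow cell, at −9.84 and −7.51 points. Of the 11 genes 8 lay above 0, against 54.0% of all measured genes, and the summed level had a median of 3370 CPM in members (0 to 34420) and 3560 in comparison wells (0 to 23190), and the part of protoplasting in these differences was not tested.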

How the data were processed

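Raw counts of reads, 32833 genes in 573 plate wells, were deposited by the authors as a table, with a text that ties wells to raw files, whose names give flow cell and plate. The submitters' processing notes name TAIR10 as the build. The sources used here do not give the aligner, how reads were counted or the strand setting. Without named molecular identifiers, PCR copies are counted, and intervals cover counting error only. The members and lists were chosen with earlier results of these data known, and no p-value was computed, since no well is tied to 1 of the 3 labelled replicates. Kept wells (500 or more genes) were thinned to 100000 reads (seed 1); strata with under 2 wells of a group were left out. A group without a read stood at 3 reads in ratios. Wells with several cells were not looked for, since each column is a plate well. Named genes were the 9 rule genes, the pathway genes, called or highly expressed list genes, and outside the lists the 12 highest and 12 lowest share differences among called genes. The comparison was tested on simulated data. Of the gene IDs, 32548 matched the RefSeq table, which gave names and promoters of TAIR10.1. Python 3.11.15, numpy 2.4.6, pandas 2.3.3 and scipy 1.17.1 were used. Other rules, depths, strata and filters were tried.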

Additional observations from a re-analysis of the deposited data

Results flagged for a closer look

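Among the 251 wells left out for having under 500 genes with a read, 4 held 5 or more reads of the 9 type-A regulators, which is 1.59% (exact 95% binomial interval 0.436 to 4.03). They are listed because the signal lies in wells that no comparison used. These 4 wells had 96 to 439 genes (median 318) and 5 to 261 regulator reads, at a median of 22040 reads, and they were the wells of that class with any regulator read. They were not added to the members.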

How the results depend on the processing

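Members numbered 57 when 2 or more rule genes had a read and 100 when the rule was applied after thinning, against 137. The gene number difference of 910 was 703 with 10 or more rule reads, 1818 with 2 or more rule genes, 4357 with no filter on wells, and 749.5 without flow cell 1. With 2 or more rule genes, 741 genes were higher and 181 lower by share, and 1058 were lower by fold. Among those 741 were 2 pathway genes (KMD2 and AHP2), in wells with a median of 5541 genes. At 50000 reads 85 were higher and 34 lower by share. Without strata 260 were higher and 2 lower by share, with 1 pathway gene (CRF6); with flow cell strata only, 250, 3 and 1. So the genes lower by share depended on the weighting by gene number. With a read in 30 or more wells, 325 were higher and 281 lower by fold. Leaving out a flow cell needs fewer signs to agree: without flow cell 1, 354 were higher and 235 lower by share, 1143 and 1094 by fold; without flow cell 2, 281 and 156 by share; without flow cell 3, 94 lower by share and 993 by fold. Chosen after seeing the data, ARR5, ARR6, ARR7, ARR15 or ARR16 only (34 members, 31 compared) gave 304 genes higher and 433 lower by share. By fold these were 365 and 1903. There, 1 pathway gene (ARR2) was among the 304 higher by share, and AT1G61260 turned to −4.37 points. The share of all measured genes called was not worked out under the alternatives, so their pathway counts are not read as a rise of the pathway. With ARR3, ARR4, ARR8 or ARR9 only (71 members, 63 compared), 203 were higher and 88 lower by share, and 469 higher by fold. The cause was not tested. Of 375 differences of the 25 called named genes over the 15 alternatives that can move them, 374 kept their direction and 303 also passed the share rule; these genes were picked for large differences in the same wells, so this is no independent check. A share of wells near 10% rests on about 12 of 122 wells, which limits what these data resolve. No paired analysis was possible because the wells carry no replicate number and no test was run.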

Other observations

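Genes for ribosomal proteins, taken by product name after the first values were seen, were found in slightly fewer member wells in the weighted shares. Their unweighted shares were not compared. Of 296 measured genes, 231 (78.0%) lay below 0, against 46.0% of all measured genes, and 87 (29.4%) on all 3 flow cells, against 11.3%. The median difference was −3.71 points, and −0.74, −4.55 and −5.51 on the 3 flow cells, with a median log2 ratio of −0.49. By share 2 were lower, 0.676% against a background of 0.361%, and 0 higher. Counted names held the words ribosomal protein and not the letters like. AT2G09990, AT3G04230 and AT3G10610, whose names failed this filter, were lower by share and are not among the 2. The counted names include organellar subunits, and the part of gene number or RNA content in this lean was not tested.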
